A study of Mus musculus with 6 samples.

Results

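Erythroid genes and globins were followed here through 10 genes taken by symbol from the deposited table: Gata1, Klf1, Hba-a1, Hba-a2, Hbb-bs, Hbb-bt, Alas2, Car1, Car2 and Tfrc. All 10 were among the 50763 gene symbols of the table, and 9 passed the filter on low counts. The libraries came from mouse bone marrow cells sorted as CD34- KSL, that is lineage-negative, c-Kit- and Sca-1-positive cells without CD34, a fraction rich in long-term repopulating stem cells. All mice carried Tal1-tTA, an activator that doxycycline switches off and that is placed under Tal1 control, together with its target transgene TRE-EGFR-tr. Tal1 is itself a gene of blood stem cells and of the erythroid lineage. EGFR-DN mice (n = 3 libraries) drank water without doxycycline and made, beside the wild-type epidermal growth factor receptor, a form without its cytoplasmic kinase domain. EGFR-WT mice (n = 3 libraries) had the same transgenes, received 0.2 g/L doxycycline and made the wild-type receptor only. The groups therefore also differed in doxycycline in every library, and the labels give neither the age of the mice nor whether animals were pooled.

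Red cell formation is directed by the zinc finger factors GATA1 and KLF1. GATA1 binds GATA motifs near most erythroid genes, and KLF1 binds CACCC-type motifs and is required for adult beta-globin. The programme ends in large amounts of alpha- and beta-globin mRNA, in haem made through the erythroid enzyme ALAS2, in iron taken up by the transferrin receptor and in carbonic anhydrases of the cytosol. Stem cells transcribe some of these genes at low levels long before any red cell is made.

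The sequences matter first for the globins, because the copies can hardly be told apart by reads of 75 bases. In the reference transcripts (GENCODE M21, GRCm38), the coding sequences of Hba-a1 and Hba-a2 (chromosome 11, both of 426 bases without the stop codon) differed at 1 base. Those of Hbb-bs and Hbb-bt (chromosome 7, 441 bases each) also differed at 1 base, so both pairs had 99.77% coding identity. The stretches below run over coding bases 344 to 418 of the alpha genes and 367 to 441 of the beta genes, counted from the first base of the start codon, and the capital marks the 1 base that differs.
Hba-a1: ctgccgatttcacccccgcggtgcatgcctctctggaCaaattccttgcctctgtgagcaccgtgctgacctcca
Hba-a2: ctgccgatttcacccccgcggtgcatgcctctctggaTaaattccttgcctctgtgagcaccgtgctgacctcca
Hbb-bs: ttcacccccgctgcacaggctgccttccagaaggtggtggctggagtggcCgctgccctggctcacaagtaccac
Hbb-bt: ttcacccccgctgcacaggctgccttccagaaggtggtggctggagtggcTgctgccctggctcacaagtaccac
Of the 75-base windows of the whole reference transcript, 62.2% for Hba-a1 and 81% for Hba-a2 also occurred in the other copy. The shares were 64.3% for Hbb-bs and 56.6% for Hbb-bt, whereas Car1 and Car2 shared 0 windows. The estimated counts of Hba-a1, Hba-a2, Hbb-bs, Hbb-bt and also Car1 were whole numbers in 0 of 6 libraries, but the 2 alpha copies together, and the 2 beta copies together, gave whole numbers in 6 of 6 (within 0.005). Levels of the single copies are thus uncertain, and the sums are firmer.

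The 250 bases before the start site (RefSeq, GRCm38.p6, read 5′ to 3′ on the strand of the gene) are shown for the regulators Gata1 and Klf1 and for both beta copies, which differ there although their coding sequences hardly do. Capitals mark the GATA motifs AGATAA and TGATAA and the KLF-type motif CCNCNCCC, each searched on both strands. A match is a run of letters and not a measured binding site.
Gata1 (chrX:7967911-7968160, minus strand): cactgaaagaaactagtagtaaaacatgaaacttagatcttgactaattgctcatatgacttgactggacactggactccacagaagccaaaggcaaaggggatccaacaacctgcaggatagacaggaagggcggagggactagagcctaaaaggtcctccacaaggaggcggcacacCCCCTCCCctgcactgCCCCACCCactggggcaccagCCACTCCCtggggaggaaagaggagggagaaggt
Klf1 (chr8:84901732-84901981, plus strand): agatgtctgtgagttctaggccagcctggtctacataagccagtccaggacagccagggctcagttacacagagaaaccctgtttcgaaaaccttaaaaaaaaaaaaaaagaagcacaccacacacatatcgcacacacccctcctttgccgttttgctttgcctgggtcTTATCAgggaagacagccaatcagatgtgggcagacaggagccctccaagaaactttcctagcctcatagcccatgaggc
Hbb-bs (chr7:103827929-103828178, minus strand): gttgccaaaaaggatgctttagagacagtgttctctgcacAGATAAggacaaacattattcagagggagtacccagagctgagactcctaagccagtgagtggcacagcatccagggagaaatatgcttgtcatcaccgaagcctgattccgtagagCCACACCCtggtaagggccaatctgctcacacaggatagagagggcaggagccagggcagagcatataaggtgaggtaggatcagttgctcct
Hbb-bt (chr7:103813924-103814173, minus strand): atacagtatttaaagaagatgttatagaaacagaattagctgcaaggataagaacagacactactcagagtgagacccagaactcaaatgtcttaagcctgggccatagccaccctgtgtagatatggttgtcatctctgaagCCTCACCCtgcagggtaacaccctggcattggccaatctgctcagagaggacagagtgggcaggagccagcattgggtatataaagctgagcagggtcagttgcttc
Klf1 had a GATA motif that begins 80 bases before its start site, as TGATAA on the opposite strand, and Gata1 had 3 CCNCNCCC matches and no GATA motif in this window. Hbb-bs had AGATAA 210 bases and CCACACCC, one form of CCNCNCCC, 93 bases before the start site. Hbb-bt had only CCTCACCC, 107 bases before it. Of 32851 mouse windows of this length, 16.6% held AGATAA or TGATAA, 45.9% held CCNCNCCC and 3.2% held CCACACCC.

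Total counts ranged from 24073133 to 34186812 in EGFR-DN and from 24428135 to 36032428 in EGFR-WT libraries, so that 3 counts stood for 0.0878 to 0.125 CPM and 0.0833 to 0.123 CPM (counts scaled to library size). EGFR-DN replicate 3 stood apart, with 25.4% of its counts in 8 rRNA-like genes against at most 6.15% in every other library. Egfr was at 50.3 to 135 CPM in EGFR-DN and at 0.160 to 0.237 CPM in EGFR-WT, where 6 counts in each EGFR-WT library are close to the floor of 3. This matches expression of the transgene in EGFR-DN, and shows hardly any RNA of the wild-type receptor in EGFR-WT. Of the sorting markers, Kit was at 736 to 1962 and 771 to 806 CPM and Ly6a, the Sca-1 gene, at 46.7 to 70.7 and 50.8 to 78.4 CPM in EGFR-DN and EGFR-WT. Cd34, whose protein the sort excluded, was still at 378 to 569 CPM in EGFR-DN and 318 to 410 CPM in EGFR-WT. In sorted bulk cells, fewer cells that express a gene and less RNA of it per cell cannot be told apart.

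Compared per kilobase of exon, the 10 genes spanned a wide range in the stem cell fraction. Car2 and Car1 stood far above the rest, and Alas2 was at the limit of detection. Car2 was at 702 ± 115.4 CPM per kb in EGFR-DN, against 1002 ± 176 CPM per kb in EGFR-WT, and Car1 at 272 ± 86.3 and 198 ± 58.6 CPM per kb (mean ± SD, n = 3 each here and below). Next in EGFR-WT came Hbb-bt with 23.9 ± 9.14 CPM per kb, Gata1 with 17.2 ± 3.40, Klf1 with 10.1 ± 3.47 and Tfrc with 7.44 ± 0.675. Hbb-bs (6.48 ± 3.57), Hba-a1 (4.61 ± 1.596) and Hba-a2 (4.37 ± 2.52 CPM per kb) followed. In EGFR-DN the order was Gata1 (24 ± 7.06), Klf1 (18.3 ± 10.98), Hbb-bt (16.4 ± 3.35) and Tfrc (8.38 ± 0.515 CPM per kb), then Hba-a1 (5.69 ± 2.54), Hbb-bs (5.56 ± 2.48) and Hba-a2 (4.37 ± 2.59). Below Car2 and Car1, neighbours in these orders differed by less than the sum of their SDs, except Hbb-bt over Tfrc in EGFR-DN and Gata1 over Klf1 in EGFR-WT.

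**Figure D1:**
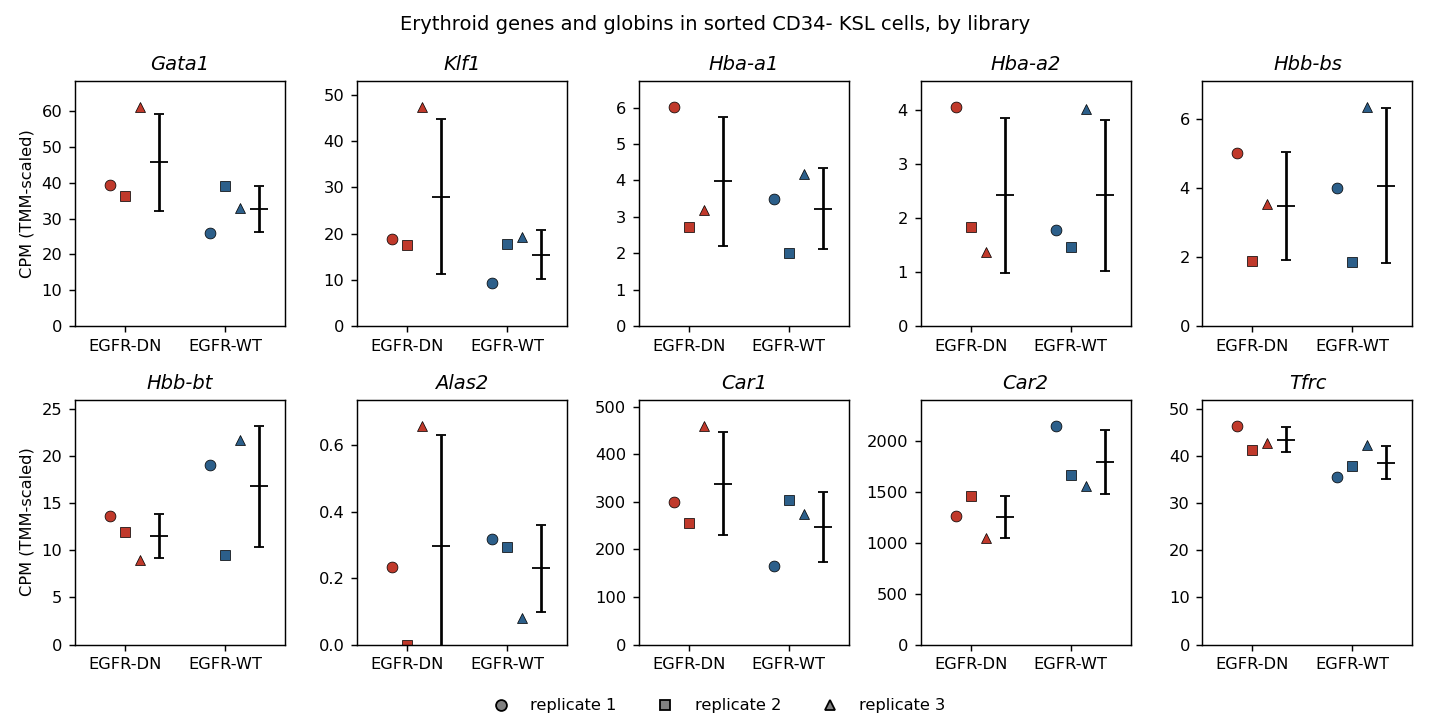
TMM-scaled CPM of the 10 genes in every library (linear axes from 0, EGFR-DN left in red, EGFR-WT right in blue, symbol shape = replicate number, black bar = mean ± SD of 3 libraries). Car2 is the 1 tested gene whose groups do not overlap, with 1044 to 1456 CPM in EGFR-DN and 1560 to 2150 CPM in EGFR-WT, and Klf1 is set apart by EGFR-DN replicate 3 at 47.4 CPM.

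Between EGFR-DN and EGFR-WT, 0 of the 9 tested genes passed the threshold of 0.05 in the adjusted edgeR quasi-likelihood test, against 0.00518% of all 19313 genes (Egfr alone). At an unadjusted p under 0.05, 0 of 9 passed by edgeR, where 6.69% of all genes did (4.3% with EGFR-DN higher, 2.4% with EGFR-DN lower), and 1 of 9, Car2, passed by DESeq2, where 9.13% of all genes did. By the adjusted DESeq2 test 0 of the 9 passed, against 0.775% of all genes. The comparison therefore gives sizes with their errors and no called change.

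The regulators come first. Gata1, the master erythroid and megakaryocytic factor, was at 39.5, 36.4 and 61.1 CPM in EGFR-DN replicates 1 to 3, against 26.1, 39.0 and 32.9 CPM in EGFR-WT replicates 1 to 3. EGFR-DN replicate 3 was highest and EGFR-WT replicate 1 lowest, and the groups overlapped. The means were 45.6 ± 13.4 and 32.6 ± 6.46 CPM, with a log2 fold change (EGFR-DN minus EGFR-WT) of 0.48 (SE 0.25, edgeR adjusted p = 0.690). Without the rRNA-rich EGFR-DN replicate 3 it was 0.21, and with that library kept and the rRNA-like genes left out of the counts it was 0.47. Scaled by total counts alone it was 0.33, a scaling that moved the median of all genes to −0.104.

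Klf1, the erythroid Krüppel-like factor, was at 18.9, 17.6 and 47.4 CPM in EGFR-DN, against 9.34, 17.7 and 19.2 CPM in EGFR-WT. One library of each group set the contrast, EGFR-DN replicate 3 at the top and EGFR-WT replicate 1 at the bottom, while the other 4 lay between 17.6 and 19.2 CPM. The log2 fold change was 0.86 (SE 0.45, edgeR adjusted p = 0.690). It was 0.24 without EGFR-DN replicate 3, 0.58 without EGFR-WT replicate 1 and 0.67 when scaled by total counts alone.

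The carbonic anhydrases moved in opposite directions in size, though neither passed. Car1, a cytosolic carbonic anhydrase that marks erythroid-committed progenitors, was at 300.02, 255 and 460 CPM in EGFR-DN, against 164, 303 and 274 CPM in EGFR-WT. Again EGFR-DN replicate 3 was highest, EGFR-WT replicate 1 was lowest and the groups overlapped. The log2 fold change was 0.45 (SE 0.32, edgeR adjusted p = 0.690). It fell to 0.16 without EGFR-DN replicate 3, 0.21 without EGFR-WT replicate 1 and 0.30 when scaled by total counts alone.

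Car2, the widely expressed fast isoform, was at 1267, 1456 and 1044 CPM in EGFR-DN, against 2150, 1663 and 1560 CPM in EGFR-WT. All 3 EGFR-DN libraries lay below all 3 EGFR-WT libraries. Of all tested genes, 17.9% had groups that did not overlap, and 8.72% did so with EGFR-DN lower. The means were 1256 ± 206 and 1791 ± 315 CPM, with a log2 fold change of −0.51 (standard error 0.25, edgeR adjusted p = 0.690). The unadjusted p was 0.0793 by edgeR and 0.0224 by DESeq2 (adjusted p = 0.418). Without EGFR-DN replicate 3 the fold change was −0.40 with an unadjusted p of 0.0255 by edgeR, and without EGFR-WT replicate 1, the highest, it was −0.37. Over the alternatives, the adjusted p of Car2 was highest, 0.912, by edgeR without EGFR-WT replicate 1. It was lowest, 0.0515, by DESeq2 without EGFR-DN replicate 3, a test chosen after seeing the data. The next lowest was 0.294, by edgeR without EGFR-DN replicate 3.

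The ratio of Car1 to Car2 counts was 0.237, 0.175 and 0.440 in EGFR-DN, against 0.0765, 0.182 and 0.176 in EGFR-WT. The groups overlapped, and an exact two-sided permutation test over the libraries gave p = 0.3 (adjusted 0.533 over 8 ratios and sums), where 0.1 is the smallest p that 3 against 3 can give.

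**Figure D2:**
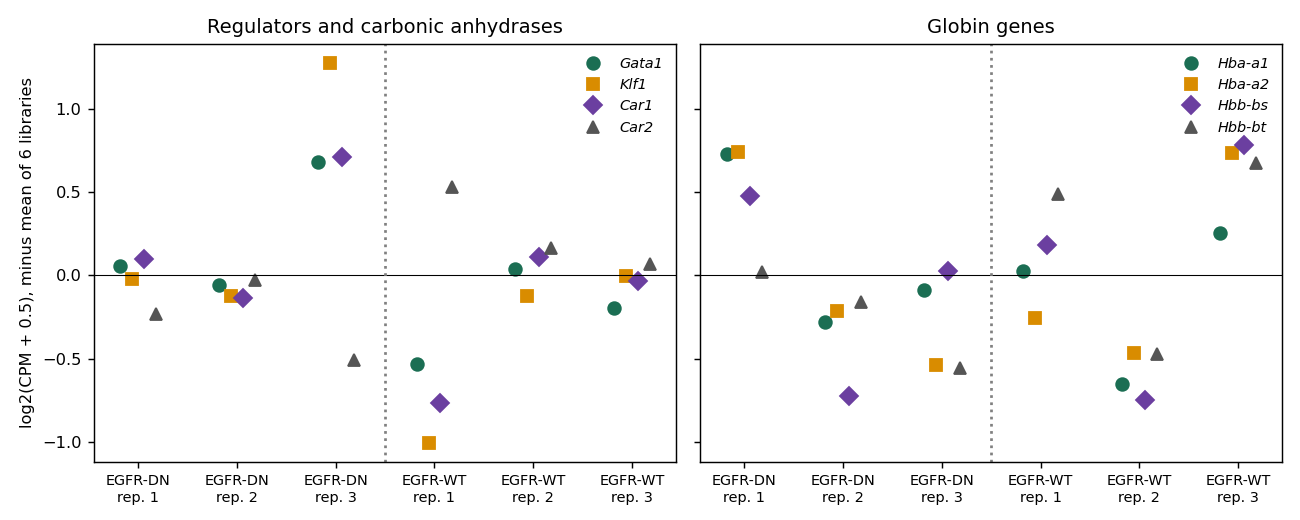
Log2(CPM + 0.5) of each gene minus its mean over the 6 libraries (left: Gata1, Klf1, Car1 and Car2, right: 4 globin genes, libraries side by side on the x axis with EGFR-DN left of the dotted line). Gata1, Klf1 and Car1 are highest in EGFR-DN replicate 3 (0.68, 1.28 and 0.71) and lowest in EGFR-WT replicate 1 (−0.53, −1.01 and −0.77), where Car2 shows the opposite values (−0.51 and 0.53).

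Gata1, Klf1 and Car1 had the same highest and the same lowest library, and among them Gata1 and Klf1 were the least alike. Likeness was taken as the root-mean-square difference of log2(CPM + 0.5) profiles after centring, so smaller is more alike. The measure keeps the size of the swings, which ran from −1.005 to 1.28 in Klf1 and from −0.53 to 0.68 in Gata1. Values for the 45 pairs ran up to 1.016. Gata1 and Car1 were the closest of all 45 pairs of the 10 genes, at 0.127, and Klf1 and Car1 were next, at 0.272. The closest globin pair was Hba-a1 with Hba-a2, at 0.304, although those copies share most of their reads. Gata1 and Klf1, at 0.330, were farther apart than that pair and than Gata1 and Tfrc, at 0.315. These values rest on 6 libraries from 2 groups and describe the profiles only.

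Among 11122 genes of at least 4 CPM ranked by the same measure, Gata1 was the gene closest to Car1. Tspo2, an erythroid relative of the mitochondrial translocator protein, was the fifth closest, at 0.149. The gene closest to Gata1 was Fam78a (0.0346), followed by Stom (0.0775), which encodes the red cell membrane protein stomatin, Orc1 (0.0784), a subunit of the origin recognition complex, Nup210 (0.0802), a nuclear pore protein, and Nt5dc2 (0.0859). Fam78a (0.136), Nup210 and Adamts3 (both 0.145) were between Gata1 and Tspo2 in likeness to Car1. Klf1 had no neighbour as close as those listed for Gata1. Sphk1, a sphingosine kinase, was at 0.134, TrnF at 0.146, Rpl32-ps at 0.151, Il1rl1, the receptor for interleukin 33, at 0.159 and Csf1r-ps at 0.164.

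Globin transcripts were present in every library and scarce in all. Together the globin genes had 985, 650 and 341 counts in EGFR-DN replicates 1 to 3, against 894, 560 and 921 counts in EGFR-WT replicates 1 to 3. This was 0.00210% ± 0.000799 of all counts in EGFR-DN and 0.00277% ± 0.00112 in EGFR-WT, a difference smaller than the spread between libraries (exact two-sided permutation p = 0.4, n = 3 each). In scaled units the sums were 28.7, 18.4 and 17.3 CPM in EGFR-DN, against 28.4, 14.9 and 36.3 CPM in EGFR-WT. EGFR-WT held both the highest and the lowest library.

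**Figure D3:**
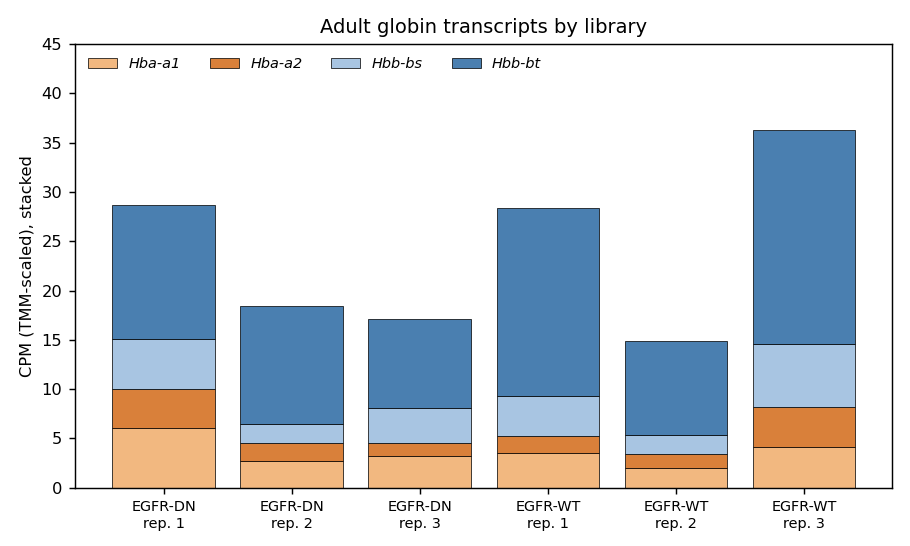
Stacked TMM-scaled CPM of Hba-a1, Hba-a2 (orange) and Hbb-bs, Hbb-bt (blue) in each library, EGFR-DN left and EGFR-WT right. In CPM, not corrected for length, beta-globin lies above alpha-globin in all 6 libraries, and the totals of the groups overlap.

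Hba-a1 and Hba-a2 encode the adult alpha chain. Hba-a1 was at 6.01, 2.72 and 3.19 CPM in EGFR-DN, against 3.49, 2.00 and 4.18 CPM in EGFR-WT (log2 fold change 0.31, SE 0.42, edgeR adjusted p = 0.771). Hba-a2 was at 4.05, 1.84 and 1.37 CPM in EGFR-DN, against 1.78, 1.47 and 4.02 CPM in EGFR-WT (0.02, SE 0.55, adjusted p = 0.992). For both genes EGFR-DN replicate 1 was highest and the groups overlapped. Summed into 1 row, the pair had 345, 161 and 90 counts in EGFR-DN, against 166, 130 and 208 counts in EGFR-WT. Its log2 fold change was 0.19 (SE 0.44, edgeR adjusted p = 0.862), and it turned to −0.31 without EGFR-DN replicate 1 and to −0.073 without EGFR-WT replicate 2.

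Hbb-bs and Hbb-bt encode the adult beta chain of mice with the single haplotype. Hbb-bs was at 5.02, 1.90 and 3.55 CPM in EGFR-DN, against 4.003, 1.87 and 6.35 CPM in EGFR-WT (log2 fold change −0.22, SE 0.52, edgeR adjusted p = 0.864). Hbb-bt was at 13.6, 11.97 and 8.98 CPM in EGFR-DN, against 19.1, 9.54 and 21.8 CPM in EGFR-WT (−0.54, SE 0.33, adjusted p = 0.690). The groups overlapped for both, and EGFR-WT replicate 3 was highest. Summed, the pair had 639, 489 and 247 counts in EGFR-DN, against 727, 428 and 713 in EGFR-WT, with a log2 fold change of −0.47 (standard error 0.34, edgeR adjusted p = 0.695). Without EGFR-WT replicate 2 that value was −0.77 (unadjusted p = 0.0211, edgeR adjusted p = 0.904), and without EGFR-WT replicate 3 it was −0.20.

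By the authors' split of shared reads, Hbb-bt took 76.9% ± 8.06 of beta-globin counts in EGFR-DN and 81.2% ± 3.32 in EGFR-WT, and Hba-a1 took 63.3% ± 6.27 and 58.3% ± 7.56 of alpha-globin counts. Neither share differed beyond the spread between libraries (exact two-sided permutation p = 0.4 for each, adjusted 0.533, n = 3 each). The other globin genes of the table were near absent. Hba-x, Hbb-bh1 and Hbb-bh2 had 0 counts in all 6 libraries, Hbb-y had 1 count in 1 EGFR-WT library, and Hbq1a and Hbq1b had at most 4 counts in any library. Of the 12 globin symbols looked up, 10 were in the table.

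Alas2, the erythroid first enzyme of haem synthesis, had 8, 0 and 13 counts in EGFR-DN, against 9.55, 11 and 2 counts in EGFR-WT, or at most 0.659 and 0.318 CPM. It did not pass the count filter and was not tested. The 3 counts that limit detection stood for 0.0878 CPM, before TMM scaling, in EGFR-DN replicate 2, the library where none was found. Alas1, the housekeeping form of the same enzyme, was at 43.7, 43.0 and 84.9 CPM in EGFR-DN, against 33.2, 34.7 and 30.4 CPM in EGFR-WT. Its groups did not overlap, as was so with EGFR-DN higher for 9.21% of all tested genes. Its log2 fold change of 0.80 (standard error 0.28, edgeR adjusted p = 0.690) was 0.40 without EGFR-DN replicate 3. Alas1 was named after its values were seen.

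Tfrc, the transferrin receptor that brings iron into dividing cells, varied least. It was at 46.5, 41.3 and 42.9 CPM in EGFR-DN, against 35.6, 37.9 and 42.5 CPM in EGFR-WT. The means were 43.5 ± 2.68 and 38.6 ± 3.51 CPM, and the groups overlapped only in that EGFR-DN replicate 2 lay below EGFR-WT replicate 3. The log2 fold change was 0.17 (SE 0.14, edgeR adjusted p = 0.705), within 0.059 to 0.24 over the alternatives.

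**Figure D4:**
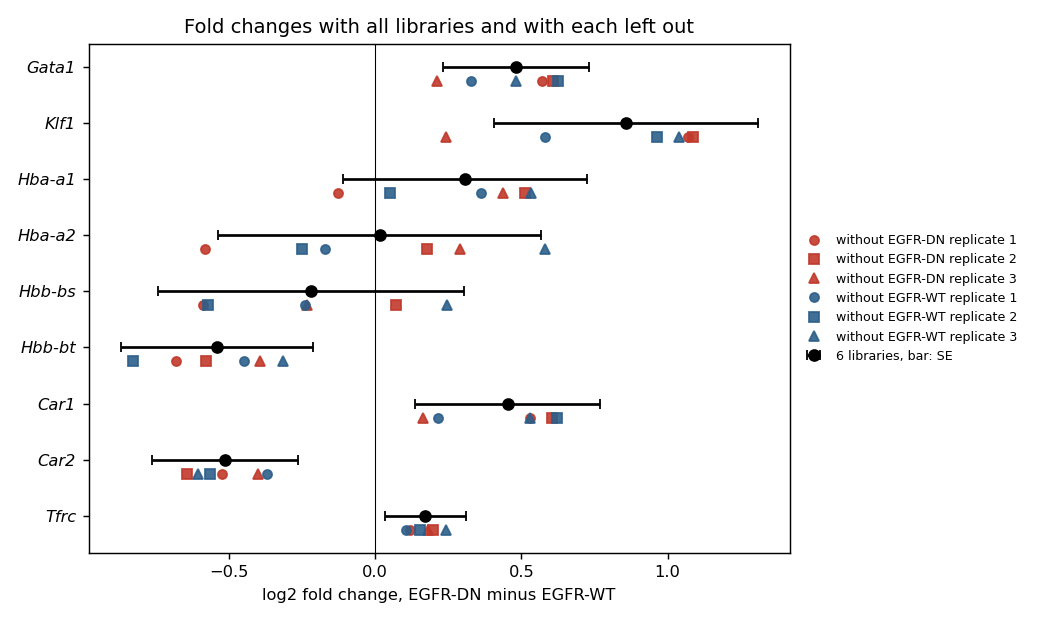
Log2 fold change of the 9 tested genes, EGFR-DN minus EGFR-WT (black: 6 libraries with SE as bar, coloured symbols: each library left out in turn). Gata1, Klf1, Car1 and Tfrc stay above 0 and Hbb-bt and Car2 below 0 in all 6, whereas Hba-a1, Hba-a2 and Hbb-bs cross 0, and Klf1 moves from 0.86 to 0.24 without EGFR-DN replicate 3.

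The wider erythroid pathway was read from lists chosen with earlier results of these libraries known, and 0 of their genes passed in either direction by edgeR or DESeq2. Beside the list medians, the median log2 fold change of all 19313 tested genes was 0.0099, with 51% above 0. Among 15 erythroid and GATA1-complex transcription factors, 8 had a value above and 7 below 0, and the median was 0.06. The most abundant were Lmo2, a bridging protein of the TAL1 and GATA1 complex (576 ± 55.4 CPM in EGFR-DN, 685 ± 58.4 in EGFR-WT, log2 fold change −0.25, SE 0.19), and Myb (520.1 ± 69.8 and 458 ± 41.9 CPM, 0.18, SE 0.19). Gata2, which precedes GATA1 in stem and progenitor cells, was at 219 ± 64.9 CPM in EGFR-DN, against 255 ± 29.4 CPM in EGFR-WT (−0.22, SE 0.24), and Fli1, a megakaryocytic factor, at 204 ± 36.1 and 256 ± 20.2 CPM (−0.33, SE 0.19). Without EGFR-DN replicate 3 the values were −0.50 for Gata2, 0.07 for Myb and −0.19 for Fli1, and the list had 4 genes above and 11 below 0, with a median of −0.14. By DESeq2 without that library, an alternative chosen after seeing the data that called 4.44% of all genes, 3 of these 15 passed (Gata2, Sox6 and Tal1, 1 higher and 2 lower), as did Alad, Alas1 and Hmox1 of the haem list (all higher), 2 membrane genes (both higher) and Itgb3 of the megakaryocyte list (lower).

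Haem synthesis and breakdown, 19 genes, had 11 above and 8 below 0 with a median of 0.05, and iron uptake, storage and regulation, 14 tested of 15, had 9 above and 5 below 0 with a median of 0.04. Both medians, and that of the transcription factors, lay below 0 when libraries were scaled by total counts alone (−0.062, −0.069 and −0.075), a scaling that moved the median of all genes to −0.104. The haem transporter gene Slc48a1 was at 159 ± 9.32 CPM in EGFR-DN, against 185 ± 25.6 CPM in EGFR-WT, and the mitochondrial carrier gene Slc25a39 at 101 ± 8.06 and 108 ± 6.54 CPM. Hmox2, the constitutive haem oxygenase, was at 84.2 ± 11.9 and 96.2 ± 9.68 CPM. Cpox, coproporphyrinogen oxidase, was at 97.3 ± 74.2 CPM in EGFR-DN, against 61.0 ± 3.73 CPM in EGFR-WT, and its log2 fold change of 0.67 (SE 0.48) was −0.17 without EGFR-DN replicate 3. The ferritin chains Fth1 and Ftl1 were at 631 ± 260.3 and 336 ± 15.97 CPM in EGFR-DN, against 727 ± 22.03 and 335 ± 12 CPM in EGFR-WT. The RNA-binding iron chaperones Pcbp1 and Pcbp2 were at 311 ± 90.8 and 225 ± 42.7 CPM in EGFR-DN, against 352 ± 36.2 and 252 ± 5.20 CPM in EGFR-WT. Fth1 and Pcbp1, at −0.20 and −0.18 on the log2 scale, turned to 0.10 and 0.04 without EGFR-DN replicate 3.

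The other carbonic anhydrases were scarce, summing to 42.1 to 47.6 CPM in EGFR-DN and 39.8 to 42.6 CPM in EGFR-WT over 14 genes. Among 9 tested genes 7 were above 0, and the median was 0.13 (4 of 9, median −0.013, when scaled by total counts alone). Car9, a membrane form induced by low oxygen, led them at 12.4 ± 1.29 CPM in EGFR-DN, against 11.3 ± 1.07 CPM in EGFR-WT, followed by Car12 (9.07 ± 1.10 and 8.87 ± 2.39 CPM), Car13 (8.62 ± 4.41 and 7.66 ± 1.58 CPM) and Car3 (7.93 ± 2.20 and 6.76 ± 1.02 CPM). The log2 fold change of Car13, 0.16, turned to −0.33 without EGFR-DN replicate 3, and that of Car12, 0.03, to −0.18 without EGFR-WT replicate 1.

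Red cell membrane and surface genes leaned upward in EGFR-DN, without a single call. Among 17 tested genes 14 were above 0 (13 when scaled by total counts alone), and the median was 0.33, which was 0.13 with 11 above 0 without EGFR-DN replicate 3. Their summed level was 396 to 756 CPM in EGFR-DN and 407 to 434 CPM in EGFR-WT. Epb41, the cytoskeletal protein 4.1, was at 160 ± 75.4 CPM in EGFR-DN, against 140 ± 12.8 CPM in EGFR-WT, Gypc, glycophorin C, at 71.4 ± 8.93 and 82.1 ± 5.34 CPM, and the water channel gene Aqp1 at 65.6 ± 14.7 and 70.1 ± 13.2 CPM. Epb41, at 0.19 on the log2 scale, turned to −0.27 without EGFR-DN replicate 3, and Aqp1, at −0.09, turned to 0.07. Ermap, an erythroid membrane protein, was at 36.6, 28.1 and 194 CPM in EGFR-DN, against 17.7, 31.7 and 32.6 CPM in EGFR-WT, so that its log2 fold change of 1.66 (SE 0.74) was 0.24 without EGFR-DN replicate 3.

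Kel, the Kell blood group protein, was named after its values were seen. It was at 6.68, 6.04 and 15.5 CPM in EGFR-DN, against 3.59, 4.29 and 3.86 CPM in EGFR-WT. Its log2 fold change was 1.26 (SE 0.39, unadjusted p = 0.0147, edgeR adjusted p = 0.690), and it was 0.69 without EGFR-DN replicate 3. All EGFR-DN libraries lay above all EGFR-WT libraries, as they did for 9.21% of all tested genes. In contrast Slc4a1, the band 3 anion exchanger of mature red cells, had 5, 0 and 0 counts in EGFR-DN, against 3, 1 and 0 counts in EGFR-WT.

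Late erythroid and reticulocyte genes had 5 above and 7 below 0 of 12 tested, with a median of −0.039. Those with the highest levels, Bnip3l (120.4 ± 24.2 CPM in EGFR-DN, 134 ± 5.64 in EGFR-WT), Ube2l6 (93.7 ± 17.02 and 118 ± 13.8), Xpo7 (103 ± 4.996 and 108 ± 5.28) and Mkrn1 (86.0 ± 24.3 and 107 ± 2.504 CPM), are also expressed outside the erythroid lineage. Ahsp, the chaperone of free alpha-globin, was named after its values were seen. It was at 27.9, 28.5 and 31.4 CPM in EGFR-DN, against 9.79, 24.4 and 21.0 CPM in EGFR-WT (log2 fold change 0.67, SE 0.32, edgeR adjusted p = 0.690, and 0.35 without EGFR-WT replicate 1).

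**Figure D5:**
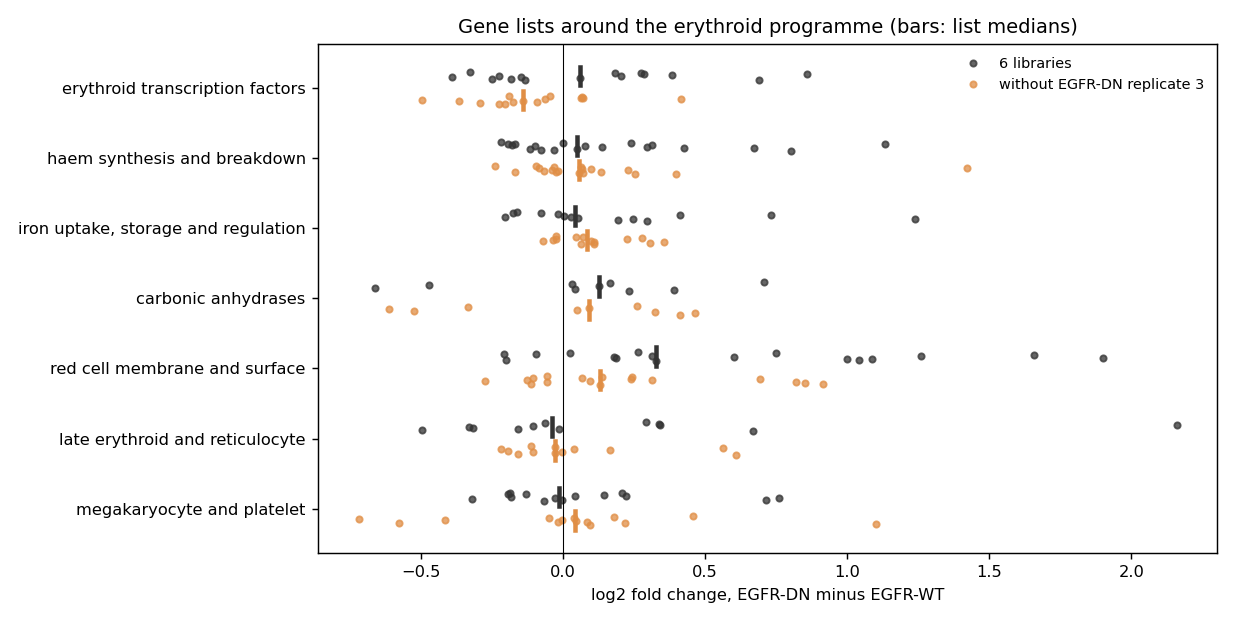
Log2 fold changes (EGFR-DN minus EGFR-WT) of the tested genes of lists around the erythroid programme, with all libraries (dark) and without EGFR-DN replicate 3 (orange), bars marking list medians. The membrane list has its median at 0.33 with all libraries and at 0.13 without that library, and no gene shown passes the adjusted test in either.

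Because GATA1 is also made by megakaryocytes, mast cells and eosinophils, markers of these cells were set beside it. Megakaryocyte and platelet genes had 6 above and 8 below 0 of 14 tested, with a median of −0.016. Their sum was 1422 to 2065 CPM in EGFR-DN and 1222 to 1866 CPM in EGFR-WT. Itga2b, the platelet integrin alpha IIb, was at 285, 268 and 156 CPM in EGFR-DN, against 199, 344 and 167 CPM in EGFR-WT, and Pf4, platelet factor 4, at 301, 201 and 169 CPM, against 182, 349.9 and 170.0 CPM. EGFR-DN replicate 3, highest in Gata1, was the lowest library for both. Plek, pleckstrin, was at 241 ± 84.1 CPM in EGFR-DN and 209 ± 57.3 CPM in EGFR-WT.

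Mast cell and basophil genes summed to 65.9 to 112.02 CPM in EGFR-DN and 77.3 to 126 CPM in EGFR-WT (3 above and 5 below 0 of 8 tested, median −0.43), and eosinophil genes to 29.7 to 137 and 37.6 to 76.5 CPM (7 of 7 above 0, median 0.91). Without EGFR-DN replicate 2 the eosinophil list had 4 of 7 above 0 and a median of 0.09, and without EGFR-WT replicate 3 its median was 0.46. The mast cell and basophil median was −0.20 without EGFR-WT replicate 2 and −0.05 without EGFR-WT replicate 3. In the DESeq2 test the basophil protease gene Mcpt8 was lower (log2 fold change −1.34 by edgeR, DESeq2 adjusted p = 0.000239) and the eosinophil lectin gene Siglecf higher (1.14, DESeq2 adjusted p = 0.0176) in EGFR-DN, and neither passed by edgeR. Mpo, Blnk and Procr, of the neutrophil, B lineage and sorted cell lists, also passed by DESeq2 and not by edgeR. Of the mast cell and basophil list, Cpa3, mast cell carboxypeptidase, was at 42.6 ± 10.003 CPM in EGFR-DN and 24.02 ± 6.73 CPM in EGFR-WT (0.82, unadjusted p = 0.0174, edgeR adjusted p = 0.690). Hdc, histidine decarboxylase, was at 4.41 ± 1.19 and 2.36 ± 0.174 CPM (0.90, unadjusted p = 0.0177, edgeR adjusted p = 0.690). The groups overlapped for neither, as was so with EGFR-DN higher for 9.21% of all tested genes. Cpa3 and Hdc were named after their values were seen. Of the same list, Il1rl1 was also above 0 (0.63). Besides Mcpt8, the genes Prss34 (−1.68), Gzmb (−0.81), Ms4a2 (−0.73) and Fcer1a (−0.13) were below 0. Prss34 was at 10.8 ± 10.9 CPM in EGFR-DN and 34.2 ± 19.8 CPM in EGFR-WT (SE 0.75, edgeR adjusted p = 0.690), and its groups overlapped. Its log2 fold change was −2.93 without EGFR-DN replicate 3. The defining mast cell genes Cma1 and Tpsb2 were at most at 0.394 CPM in any library. The 10 markers of the macrophages of erythroblastic islands, which surround themselves with erythroblasts, summed to 8.99 to 16.1 CPM in EGFR-DN and 6.27 to 10.3 CPM in EGFR-WT. Of 4 tested, 2 were above and 2 below 0, with a median of 0.45. That median was 0.26 without EGFR-DN replicate 1, 1.06 without EGFR-DN replicate 3 (5 of 6 above 0) and 1.47 without EGFR-WT replicate 2 (4 of 5 above 0). Cd163, the most abundant, was at 4.96 ± 1.81 and 2.17 ± 0.700 CPM (log2 fold change 1.19, edgeR adjusted p = 0.690), and its groups overlapped. C1qa, C1qb and C1qc were at most at 0.263, 1.37 and 1.31 CPM in any library. Of other lineages, neutrophil granule genes summed to 897 to 1436 CPM in EGFR-DN and 403 to 584 CPM in EGFR-WT (9 of 9 tested above 0, median 1.67). Most of that sum was Mpo, at 648 to 1261 CPM in EGFR-DN and 262 to 429 CPM in EGFR-WT. Prtn3 was at 80.9 ± 18.3 and 79.2 ± 11.3 CPM (log2 fold change 0.03). Ngp was at most at 3.74 CPM and S100a9 at most at 3.91 CPM in any library. B lineage genes summed to 50.9 to 70.1 and 36.5 to 47.8 CPM (6 of 6 above 0, median 1.09), and T and NK genes to 171 to 263 and 140 to 167 CPM (3 of 5 above 0, median 0.57, which was 0.10 without EGFR-DN replicate 1 and −0.06, with 3 of 7 above 0, without EGFR-WT replicate 1). Most of the T and NK sum was Nkg7, at 150 to 226 CPM in EGFR-DN and 98.9 to 145 CPM in EGFR-WT. Cd3d was at most at 0.438 CPM and Cd3e at most at 0.254 CPM in any library. By edgeR 0 genes of these lists passed. The 10 genes that define the sorted cells summed to 1650 to 3154 CPM in EGFR-DN and 1725 to 1872 CPM in EGFR-WT (3 of 10 above 0, median −0.21). That median was −0.61 with 1 of 10 above 0 without EGFR-DN replicate 3, and with 5 of 10 above 0 it lay at −3.99e-05 without EGFR-DN replicate 1. The part of these cells in the values of the erythroid genes was not tested.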

How the data were processed

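For 6 libraries the authors deposited unscaled estimated counts, with 1 row for each gene symbol; 79.4% of the values were whole. The labels' protocols describe oligo(dT)-primed SMART-Seq v4 cDNA, Nextera XT libraries and single reads of 75 bases. DRAGEN, DESeq2 1.40.2, R 4.3.1 and the build mm39 are named, with no role, in the submitters' processing notes. Annotation and strandedness of the counting: not given in the sources used here. Counts were rounded to whole numbers before testing, filtered with filterByExpr (19313 genes), scaled by the trimmed mean of M-values (TMM) and tested with edgeR 4.0.16 in R 4.3.3 (quasi-likelihood, two-sided, Benjamini-Hochberg over all genes, threshold 0.05). SE is the log2 fold change over the square root of F. DESeq2 1.42.0 and limma 3.58.1 were alternatives. The scripts were tested on simulated data.

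Members and lists were chosen with earlier results of these data known. Of each list, the up to 4 genes with the highest mean level and any past the threshold were named. Some genes that this rule would name are not reported here. Whether each library is a separate animal is not stated in the labels; the p-values therefore rest on a spread among libraries that may be technical. The floor of 3 counts covers counting error only. Reference sequences and lengths are of GRCm38, an earlier build than the files'.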

Additional observations from a re-analysis of the deposited data

How the results depend on the processing

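Of the 10 genes, 0 passed in the main test and under each of the 18 alternatives, 17 of them planned and 1, DESeq2 without EGFR-DN replicate 3, chosen after seeing the data. The count over all genes was 1 in the main test, 135 by DESeq2, 0 by limma-voom (1187 at an unadjusted p under 0.05) and 884 by DESeq2 without EGFR-DN replicate 3. With each library left out in turn it was 0 to 57, the 57 without EGFR-DN replicate 3. Gata1, Klf1, Car1, Tfrc, Hbb-bt and Car2 kept their sign throughout. Hba-a1 ranged from −0.13 to 0.53 and Hbb-bs from −0.59 to 0.25 with a library left out. Hba-a2 ranged from −0.58 to 0.58, and was −0.054 with library size alone and −0.0067 without a filter. The alpha copies summed ranged from −0.31 to 0.55. The cause was not tested for any of these. The difference in globin share, −0.000670 percentage points in EGFR-DN minus EGFR-WT, was −0.00128 (without EGFR-WT replicate 2) to −0.000169 (without EGFR-WT replicate 3) with a library left out, so its size rests on single libraries (exact permutation p = 0.2 to 0.8).

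Replicate numbers showed no sign of pairing the libraries. Same-numbered libraries deviated together with r = −0.024, 0.0541 and 0.0635, and EGFR-DN replicate 1 correlated best with EGFR-WT replicate 2 (0.101). Deviations from a mean of 3 libraries cannot show that the libraries were unpaired. With the replicate number as a block, 1 gene passed over all genes, 0 of the 10 did, and Klf1 had an unadjusted p of 0.0397 (adjusted p = 0.766). Globin genes had 341 to 985 counts per library in all.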

Other observations

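The ratio of beta- to alpha-globin counts, which was chosen after the values were seen, was lower in EGFR-DN. It was 1.85 (95% exact binomial interval 1.62 to 2.12), 3.04 (2.54 to 3.65) and 2.74 (2.15 to 3.53) in EGFR-DN replicates 1 to 3, against 4.38 (3.70 to 5.22), 3.29 (2.70 to 4.04) and 3.43 (2.93 to 4.02) in EGFR-WT replicates 1 to 3. All EGFR-DN libraries lay below all EGFR-WT libraries, but the intervals of EGFR-DN replicates 2 and 3 overlapped those of EGFR-WT replicates 2 and 3. The interval of EGFR-DN replicate 1 lay below those of all other libraries. These intervals cover counting error only. An exact two-sided permutation test gave p = 0.1, the smallest that 3 against 3 can give, and 0.533 adjusted over the 8 ratios and sums computed. The summed copies of each chain were used, so the split of reads between near-identical copies does not enter.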
